A study of Mus musculus with 6 samples.

Results

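Gria1 to Gria4 encode the subunits of AMPA receptors and Grik1 to Grik5 those of kainate receptors, the ion channels that carry most of the fast excitatory response to glutamate. These 9 genes were taken by name from the 55341 gene symbols of the count tables, and all 9 passed the filter on low counts that left 16343 genes for testing. Poly(A) RNA was sequenced from 6 cultures of mouse cerebellar granule neurons (CGNs). Of these, 3 received DMSO alone, as the vehicle, and the other 3 received GSK-126, an inhibitor of EZH2, the methyltransferase that places trimethylation on lysine 27 of histone H3 (H3K27me3). By the study's methods the cultures came from CD1-IGS pups of either sex, with cerebella pooled over litters, and granule neuron precursors isolated on Percoll were kept in AraC, which blocks division of remaining non-neuronal cells. No genetic change was made in either group. Each label names the agent and numbers the replicate, without a dose or a day in culture, and the source is given as cerebellum although the titles say CGN. The study describes RNA-seq after GSK-126 added on an earlier or on a later day in culture, and the labels do not say which applies.

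AMPA receptors are tetramers. Those that hold an edited GRIA2 subunit let little calcium through, and auxiliary proteins such as the TARPs (the Cacng genes) bring them to the surface and set their gating. In kainate receptors GRIK1, GRIK2 and GRIK3 can form channels on their own, whereas GRIK4 and GRIK5 need one of them as a partner; the NETO proteins are their auxiliary subunits. Granule neurons receive their mossy fibre input through AMPA and NMDA receptors, and stargazin (Cacng2) is the TARP known for carrying AMPA receptors to their surface. Bergmann glia and immature astrocytes also make AMPA receptors, mainly of GRIA1 and GRIA4.

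The members share a glutamine codon in the loop that lines the channel pore, the Q/R site. ADARB1 edits it in nearly all Gria2 transcripts and in part of the Grik1 and Grik2 transcripts, so that arginine is read in its place. The coding sequence around this codon is given for all 9 genes because edited and unedited transcripts differ in this codon and fall into the same count per gene. The flip and flop splice forms of the Gria genes, which differ elsewhere, share a count as well. Each line runs 5′ to 3′ over 30 coding bases of a GENCODE M21 transcript (GRCm38), with the Q/R codon in capitals.
Gria1: ctgggggccttcatgCAGcaaggatgtgac
Gria2: ttgggtgcctttatgCAGcaaggatgcgat
Gria3: ttgggtgcttttatgCAGcaaggatgtgat
Gria4: ctgggtgcctttatgCAAcaaggatgtgac
Grik1: gttggagctctcatgCAGcaaggatcggag
Grik2: gttggagctctcatgCAGcaaggttctgag
Grik3: atgggctccctgatgCAGcaaggatctgaa
Grik4: gttggaggcttcatgCAGcaaggctccact
Grik5: gtgggtggcttcatgCAGcagggctcggag

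The genome codes glutamine at this place in every member, and Gria4 alone among them uses CAA. Grik1 and Grik2 were identical at 28 of the 30 bases, as were Gria2 and Gria3, while Grik3 matched Grik1 and Grik2 at 22 each. The Gria2 codon lies at chr3:80706911-80706913 on the minus strand, in exon 11 of 16 of the transcript used. That of Grik2 lies at chr10:49244329-49244331 on the minus strand in exon 13 of 17, and that of Grik3 at chr4:125691207-125691209 on the plus strand in exon 12 of 16. In Grik1, Grik2 and Grik3 the 30 bases run across a junction with the next exon.

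The libraries held from 8058760 to 12047837 reads assigned to genes, so a count of 3 was worth 0.249 to 0.374 CPM (reads scaled to a common library size with TMM factors). For Gria2 this meant 2438 to 3507 reads per library, for Grik1 47 to 110 and for Grik4 23 to 68, so the last 2 genes carry the largest counting error. No member shared exon bases with a gene on the opposite strand. On the same strand, Gria2 shared exon bases with Gm25749, Gria3 with Gm22413, Gria4 with Gm23811 and Grik4 with Gm24420. The effect of this overlap on the counts was not examined. Libraries with the same replicate number deviated together, and the numbers are therefore read as pairs of cultures. The granule neuron label was checked against its markers: all 13 were detected in every library, with a summed level of 5171 to 7121 CPM in DMSO and 3643 to 5777 CPM in GSK-126. Astrocyte and Bergmann glia markers were also high and uneven, from 2193 to 6862 CPM in DMSO and from 2260 to 7097 CPM in GSK-126, although the cultures were treated against dividing cells. Of 7 Purkinje cell markers 6 were detected in every library, with a summed level of 132 to 152 CPM in DMSO and 150 to 176 CPM in GSK-126. Skor2 was at 0 in every library, and Pcp2, a protein of Purkinje cells, lay between 1.65 and 3.12 CPM. Over the 6 libraries the oligodendrocyte lineage markers summed to 445 to 825 CPM and the GABAergic interneuron markers to 224 to 379 CPM. Microglia markers summed to 180 to 443 CPM and unipolar brush cell markers to 159 to 213 CPM.

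Levels were first compared between members in the DMSO cultures, as CPM per kilobase of exon. Gria4 had the highest mean, 35.8 ± 6.57 (SD, n = 3), followed by Gria1 at 31.4 ± 20.7 and Gria2 at 24.6 ± 4.21. Grik2, at 17.6 ± 4.2, and Grik5, at 15.4 ± 1.49, were the leading kainate genes and stood above Gria3 at 7.02 ± 1.77. Grik3 followed at 5.26 ± 0.850, and Grik1, at 1.30 ± 0.422, and Grik4, at 0.907 ± 0.416, were lowest. Of the neighbours in this order, Grik5 and Gria3, and Grik3 and Grik1, had ranges over the 3 libraries that did not overlap. All other neighbours overlapped across cultures. Within a library, Gria4 stood above Gria2 and Gria2 above Grik2 in all 6, while the place of Gria1 changed from culture to culture. With the length of the longest transcript in place of all exons, Gria2 moved from rank 3 to rank 2, since its exons together span 15548 bases against 6043 for Gria1.

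**Figure D1:**
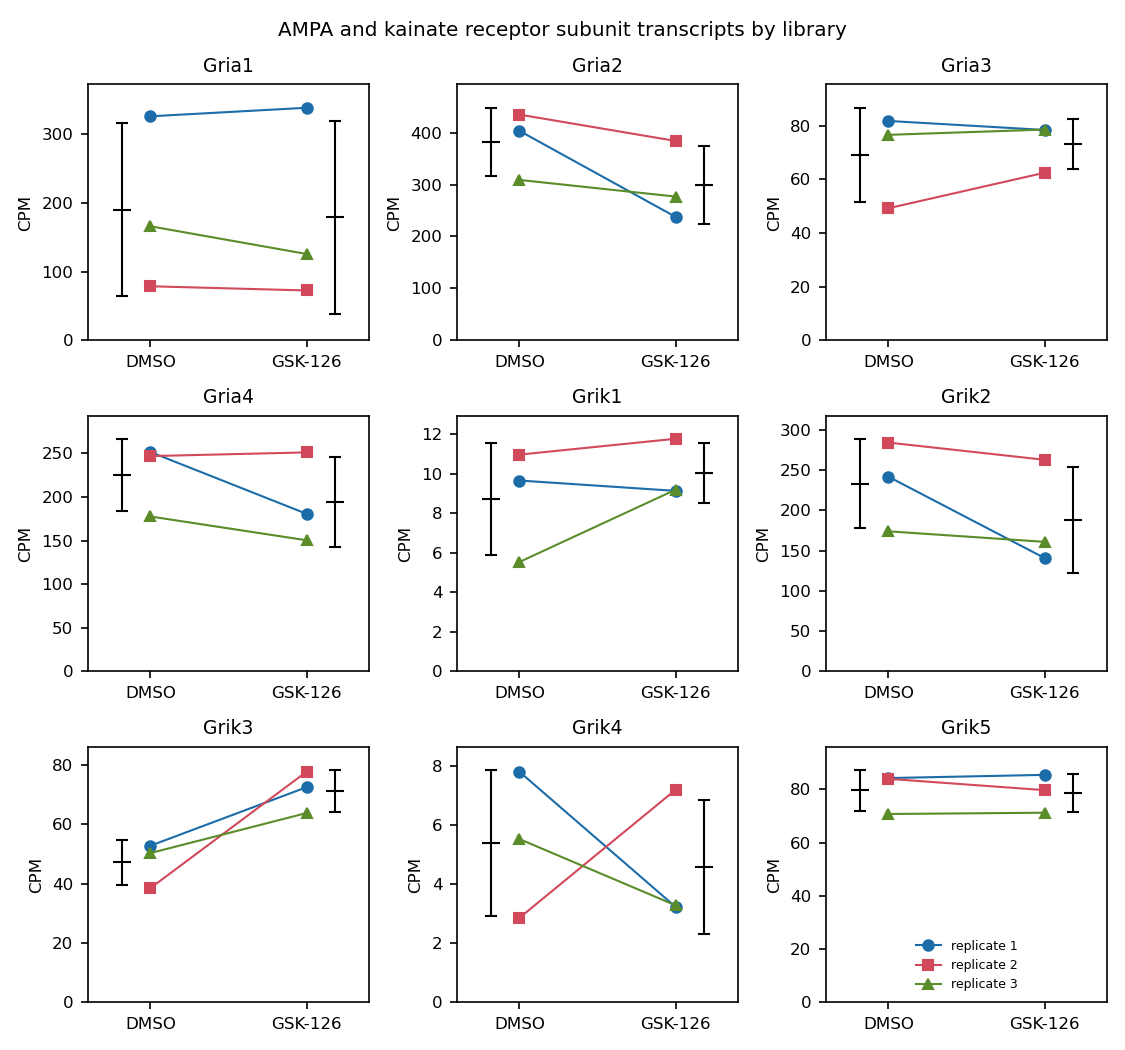
CPM (y axis, from 0) of each of the 9 subunit genes in the DMSO and GSK-126 libraries (x axis). Lines join libraries with the same replicate number and black bars give the mean ± SD of 3 libraries. Grik3 is the member whose groups do not overlap, from 38.5 to 52.8 CPM in DMSO and from 63.8 to 77.7 CPM in GSK-126, and Gria1 differs more between replicate numbers than between treatments.

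The question of the comparison was which subunit genes differed when EZH2 activity was blocked in young granule neurons. Grik3 rose in the paired fit, by 1.52-fold, and it was the member past the threshold. Gria2 and Grik2 were lower in GSK-126 in all 3 pairs, but neither passed the threshold after adjustment. Without the pairing no member passed in edgeR, DESeq2 or limma, and over all genes edgeR and limma called 0 and DESeq2 59.

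Grik3 (chr4:125490700-125714173, plus strand) encodes a kainate subunit of low glutamate affinity. It measured 52.8, 38.5 and 50.3 CPM in DMSO replicates 1, 2 and 3 and 72.5, 77.7 and 63.8 CPM in the matching GSK-126 libraries. The lowest GSK-126 library thus lay above the highest DMSO library, and the gain was largest in pair 2. Such a gap between the groups was found for 10.9% of all genes tested and for 1 of the 9 members. Mean levels were 47.2 ± 7.62 CPM in DMSO and 71.4 ± 7.04 CPM in GSK-126 (SD, n = 3 each).

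In edgeR's quasi-likelihood test with the replicate number as a block, the log2 fold change of Grik3 was 0.60 (SE 0.144), with a Benjamini-Hochberg adjusted p of 0.0449. Of all genes, 2.23% were called higher and 1.42% lower in that fit, against 1 and 0 of the 9 members. DESeq2 with the block gave an adjusted p of 0.0193 and called 5.37% of the genes that received an adjusted p and 1 of 8 members. In the fit by treatment alone the log2 fold change was also 0.60 (SE 0.160), but the adjusted p from edgeR was 0.768. In that fit 0% of genes passed after adjustment and 6.0% had an unadjusted p under 0.05, Grik3 among them as 1 of the 9 members; DESeq2 without the block gave Grik3 an adjusted p of 0.256. The paired call of Grik3 was lost without replicate 2 (log2 fold change 0.42, adjusted p 0.225 in edgeR) and with library totals in place of TMM factors (0.59, adjusted p 0.0552).

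The other kainate genes that form channels alone were Grik2 and Grik1. Grik2 (chr10:49094833-49788766, minus strand) encodes the widespread GRIK2 subunit and measured 242, 284 and 174 CPM in DMSO and 141, 263 and 161 CPM in GSK-126. All 3 pairs were lower under GSK-126, but the step was large in pair 1, at -0.78 on the log2 scale, and small in pairs 2 and 3, at -0.11 each, and the groups overlapped. The paired log2 fold change was -0.33 (SE 0.138), with an edgeR adjusted p of 0.245, and it was -0.11 without replicate 1. Grik1 (chr16:87895900-88290265, minus strand) stayed between 5.54 and 11.8 CPM over the 6 libraries, with overlapping groups and a paired log2 fold change of 0.23 (SE 0.241).

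The partner-dependent subunits differed in level and in precision. Grik5 (chr7:25009849-25072346, minus strand), the more abundant of the pair per kilobase, measured 84.2, 83.9 and 70.7 CPM in DMSO and 85.4, 79.7 and 71.2 CPM in GSK-126. Its levels were close in the 2 groups, and its paired log2 fold change of -0.01 had the smallest SE of the 9 members, 0.108. Grik4 (chr9:42518135-42944493, minus strand) went from 7.82, 2.87 and 5.54 CPM to 3.24, 7.21 and 3.29 CPM, up in pair 2 and down in the other pairs. Its paired log2 fold change of -0.28 had an SE of 0.453, against 0.144 for Grik3, so these libraries set only a wide range for it.

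**Figure D2:**
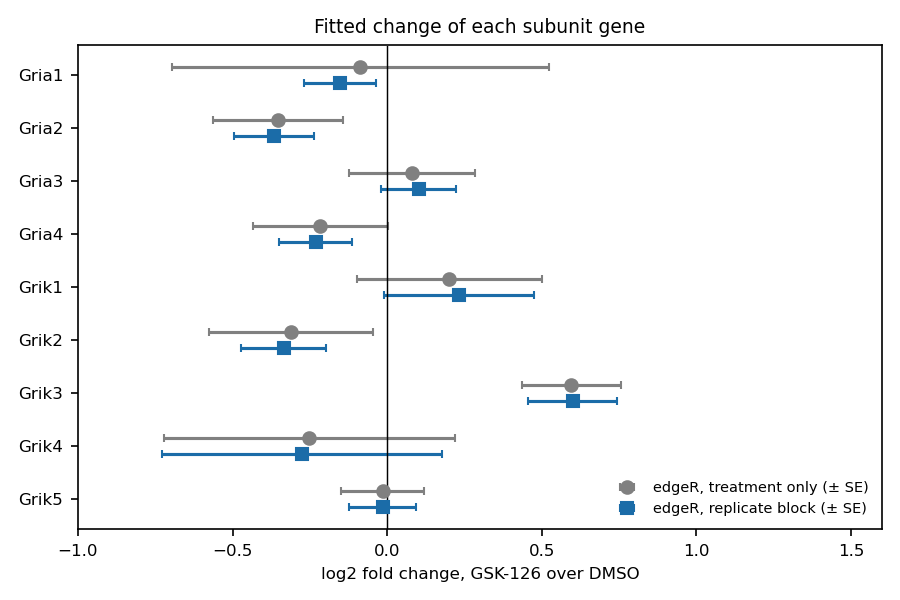
Log2 fold change of GSK-126 over DMSO (x axis) for each subunit gene, with bars of ± SE from edgeR fitted with treatment alone (grey circles) and with the replicate number as a block (blue squares). Estimates moved little between the fits, from -0.09 to -0.15 for Gria1 and from -0.35 to -0.37 for Gria2, while the SE of Gria1 went from 0.609 to 0.116.

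Among the AMPA genes, Gria2 encodes the subunit whose edited form limits calcium entry (chr3:80681450-80802835, minus strand). It measured 403, 435 and 309 CPM in DMSO and 238, 384 and 277 CPM in GSK-126. Every pair was lower with GSK-126, most of all pair 1, and the groups overlapped. A shared direction in all 3 pairs was seen for 39.0% of all genes tested and for 3 of the 9 members, Grik3, Gria2 and Grik2. The paired log2 fold change of Gria2 was -0.37 (SE 0.129), with an unadjusted p of 0.0157 and an adjusted p of 0.172 in edgeR. Without replicate 1 it was -0.17 (adjusted p 0.365). An unadjusted p under 0.05 in the paired fit was found for 16.7% of all genes and for these same 3 members.

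Gria4, the gene of the subunit with the fastest gating, lies at chr9:4417896-4796234 on the minus strand. It measured 252, 247 and 178 CPM in DMSO and 181, 251 and 150 CPM in GSK-126. It was lower in pairs 1 and 3 and level in pair 2, with a paired log2 fold change of -0.23 (SE 0.117) and an edgeR adjusted p of 0.361, and it was -0.10 without replicate 1. Gria3 (chrX:41400854-41678601, plus strand) measured 81.8, 49.2 and 76.6 CPM in DMSO and 78.4, 62.5 and 78.6 CPM in GSK-126. Its groups overlapped, and the paired log2 fold change was 0.10 (SE 0.121).

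Gria1 (chr11:57011387-57330244, plus strand), a subunit whose channels pass calcium where GRIA2 is absent, measured 326, 78.7 and 166 CPM in DMSO and 338, 72.6 and 125.6 CPM in GSK-126. The cultures of replicate 1 were high and those of replicate 2 low whichever agent they received, and the treatment difference within pairs was small beside this, with a paired log2 fold change of -0.15 (SE 0.116). Replicate 2 lay 2.14 below replicate 1 on the log2 scale and replicate 3 lay 1.20 below it, and the difference between replicate numbers had an adjusted p of 2.96e-05 in the edgeR fit with the block. Such a difference passed for 11.6% of all genes and for 3 of the 9 members, the others being Grik2 (adjusted p 0.0321) and Gria4 (adjusted p 0.0421). In Grik2 replicate 2 lay 0.55 above replicate 1, and in Gria4 it lay 0.22 above it on the log2 scale, with -0.39 for replicate 3 against replicate 1.

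The summed level of the astrocyte and Bergmann glia markers had the same order of replicate numbers in both groups. Gfap, an intermediate filament of astrocytes, measured 2544, 758 and 1799 CPM in DMSO and 3182, 933 and 1660 CPM in GSK-126. Slc1a3, the glial glutamate transporter, went from 1599, 455 and 795 CPM to 1375, 406 and 645 CPM. Of the 9 astrocyte and Bergmann glia markers, 8 differed between replicate numbers at an adjusted p under 0.05, and all 9 were detected in every library. Among the AMPA receptor partners, the TARP genes Cacng4 (182.5, 77.3 and 109 CPM in DMSO) and Cacng5 (121, 37.5 and 68.9 CPM in DMSO) showed this order as well, with adjusted p of 0.000810 and 8.49e-05 for the difference between replicate numbers. The AMPA auxiliary and assembly list as a whole did not share it: 6 of its 16 tested genes differed between replicate numbers, in both directions. Shisa9 also lay lower in replicate 2 than in replicate 1, by 1.23 on the log2 scale. Frrs1l, Gsg1l and Porcn lay higher in replicate 2 than in replicate 1, by 0.87, 1.09 and 0.48. Differences between replicate numbers were not particular to astroglia. They were called for 6 of 9 oligodendrocyte lineage, 5 of 7 microglia, 7 of 13 granule neuron and 0 of 9 GABAergic interneuron markers. The summed oligodendrocyte lineage and microglia levels were also lowest in replicate 2 in both groups. Whether the astroglial or other glial share of a culture has a part in its Gria1 level was not tested, and in bulk RNA fewer cells of a type cannot be told apart from less RNA per cell.

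**Figure D3:**
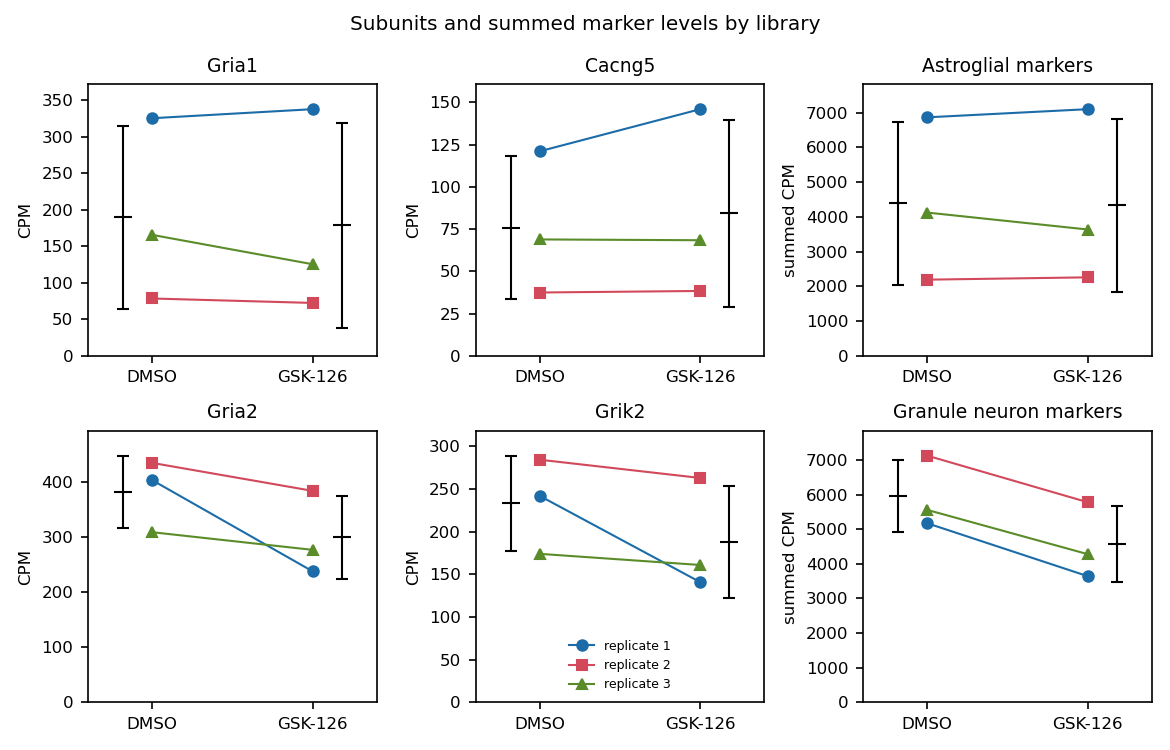
Levels by library (y axes from 0, CPM or summed CPM) of Gria1, Cacng5 and 9 astrocyte and Bergmann glia markers in the upper row, and of Gria2, Grik2 and 13 granule neuron markers in the lower row. Lines join replicate numbers and bars give the mean ± SD of 3 libraries; in the upper row replicate 1 is highest and replicate 2 lowest in both groups, and in the lower row the GSK-126 library of each pair lies below its DMSO library.

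Of the 13 granule neuron markers, 7 fell in the paired edgeR fit and none rose, among them Gabra6, a GABA receptor subunit of mature granule neurons, from 102, 208 and 86.3 CPM to 33.1, 77.9 and 37.4 CPM. The vesicular glutamate transporter Slc17a7 also fell, with a log2 fold change of -2.16 (adjusted p 0.000340 in edgeR), as did Neurod1, a transcription factor of the lineage, with -0.58 (adjusted p 0.0265). The summed level of the list was lower in GSK-126 in each pair, as Gria2 and Grik2 were, and its part in their values was not tested. In the other lists, 2 of 9 GABAergic interneuron markers fell, among them Slc32a1, and 1 of 4 unipolar brush cell markers (Eomes) fell. Of 9 astrocyte and Bergmann glia markers 1 rose (Gdf10), as did 1 of 9 of the oligodendrocyte lineage (Cspg4), and 0 of 5 tested Purkinje cell and 0 of 7 microglia markers passed. All these counts are from the paired edgeR fit, which called 1.42% of all genes lower and 2.23% higher. By treatment alone edgeR called no marker of any list.

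The make-up of each family was then computed as each gene's share of the summed CPM per kilobase. Within the kainate genes, the share of Grik3 was 13.6%, 9.74% and 16.4% in DMSO and 21.8%, 18.5% and 20.3% in GSK-126. All 3 GSK-126 cultures lay above all 3 DMSO cultures, a difference in the mean share of 6.94 percentage points, from 13.3% ± 3.35 to 20.2% ± 1.65 (SD, n = 3 each; two-sided exact permutation p of 0.1, the smallest that 3 against 3 allow). That test did not use the pairing, and permuting within pairs gave a p of 0.25, the smallest that 3 pairs allow. The share of Grik2 went from 42.3%, 48.6% and 38.4% to 28.6%, 42.3% and 34.7%, lower in each pair but with overlapping groups (exact permutation p of 0.3, and 0.25 within pairs). The share of Grik1 was also higher in each pair, from 3.33%, 3.70% and 2.41% to 3.66%, 3.74% and 3.91%. Its groups overlapped (exact permutation p of 0.2, and 0.25 within pairs). Grik5 kept 32.9% to 44.5% of the kainate sum over the 6 libraries.

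Within the AMPA genes the shares differed between cultures more than between agents. Gria1 made up 42.1%, 15.3% and 33.0% in DMSO and 51.9%, 14.5% and 29.5% in GSK-126, and Gria4 31.2%, 46.0% and 33.9% against 26.6%, 48.1% and 33.9%. Gria3 made up 6.48%, 5.87% and 9.33% in DMSO and 7.37%, 7.65% and 11.3% in GSK-126. Its share was higher in each pair, but the groups overlapped (exact permutation p of 0.5, and 0.25 within pairs). The share of Gria2 was 20.3%, 32.8% and 23.9% in DMSO and 14.2%, 29.8% and 25.3% in GSK-126, lowest in the cultures where Gria1 was highest; shares sum to a fixed total and are not independent of each other. The summed AMPA level was 98.8 ± 25.3 CPM per kilobase in DMSO and 87.0 ± 19.1 in GSK-126, lower in 3 of 3 pairs. The exact permutation test of this sum did not use the pairing and gave a p of 0.5. The kainate sum, 40.5 ± 5.48 against 39.7 ± 6.35 CPM per kilobase, went up in 2 pairs and down in the other (exact permutation p of 1).

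Other genes of glutamate receptor function were taken from 5 lists of 53 genes, of which 50 passed the filter: 4 lists of genes that assemble, edit, anchor or regulate AMPA and kainate receptors, and the 9 NMDA and delta receptor subunits, a separate receptor family. In the paired edgeR fit 6 fell and none rose, and their median log2 fold change was -0.16, against -0.00 over all genes. The background in that fit was the 1.42% of all genes called lower. Without the block none of the 50 passed in edgeR, DESeq2 or limma, and 9 had an unadjusted p under 0.05 in edgeR. In the paired fit without replicate 2 Nptx1 was the 1 gene of these lists called. DESeq2 with the block called the same 6 and 2 more scaffold genes, Dlg3 lower (adjusted p 0.0363) and Homer2 higher (adjusted p 0.0310). The AMPA auxiliary and assembly list gave 2 of the 6, scaffolds, trafficking and clustering factors 3, and the NMDA and delta subunits 1; no gene of the kainate auxiliary list (3 tested) or of the RNA editing list (3 tested) passed.

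Both assembly genes that fell act on AMPA receptors before they reach the surface. Frrs1l, which takes part in building the receptor in the endoplasmic reticulum, measured 222.5, 364 and 259 CPM in DMSO and 127, 260 and 185 CPM in GSK-126. It was lower in each pair although the groups overlapped, and its log2 fold change was -0.59 (adjusted p 0.0143 in edgeR with the block). Porcn, an acyltransferase of the same compartment best known for Wnt proteins, fell by 0.48 on the log2 scale (adjusted p 0.0351 in the same fit). The call of Porcn was lost without replicate 2 (adjusted p 0.149) and without replicate 3 (0.227).

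The neuronal pentraxins cluster AMPA receptors from outside the cell, and Nptx1 had the largest change of the 6 called genes. It went from 225, 423 and 199 CPM to 99.8, 181 and 103 CPM, so that no GSK-126 library reached the lowest DMSO library. Its log2 fold change was -1.12 (adjusted p 0.000718 in edgeR with the block). Its membrane-bound relative Nptxr fell by 0.66 (adjusted p 0.00674), and Nsf, the ATPase that binds the GRIA2 tail, fell by 0.48 (adjusted p 0.0253). The call of Nsf was lost without replicate 2 (adjusted p 0.147) and without replicate 3 (0.219). For the postsynaptic scaffold Dlg4 the log2 fold change in the full paired fit was -0.26 (adjusted p 0.246).

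**Figure D4:**
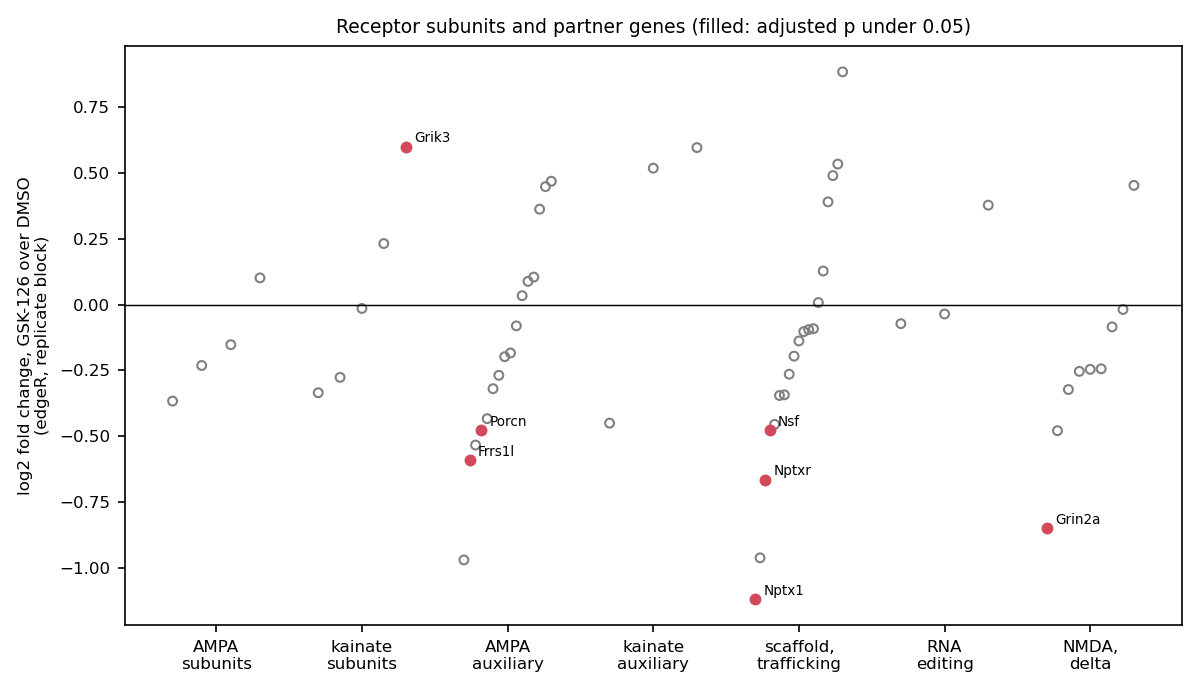
Log2 fold change of GSK-126 over DMSO from the paired edgeR fit (y axis) for the 9 subunit genes and the 50 tested genes of the other lists, grouped by list (x axis; the spread within a group only separates points). Filled points passed an adjusted p of 0.05: Grik3 at 0.60 above the line, and Porcn, Frrs1l, Nsf, Nptxr, Nptx1 and Grin2a below it, down to -1.12 for Nptx1.

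The TARP gene Cacng2 (stargazin) had a log2 fold change of -0.32 (adjusted p 0.164), lower in 3 of 3 pairs. Cacng7 and Cacng8 had 0 counts in all libraries. The same was true of Cacng6 and Nlrp12 beside them on chr7, and Myadm and Tarm1 in that stretch had 1 and 5 counts over the 6 libraries. The zeros of Cacng7 and Cacng8 are therefore not read as absence of their transcripts. Of the kainate receptor partners, Neto2 had 132 ± 24.4 CPM in DMSO and 101 ± 41.9 in GSK-126 (SD, n = 3 each; adjusted p 0.129 with the block), while the mean of Neto1 was 1.52 CPM in DMSO and 2.33 in GSK-126. C1ql2, a secreted organizer of kainate receptors, did not pass the filter.

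Adarb1, the enzyme that edits the Gria2 codon shown above, measured 284, 354 and 258 CPM in DMSO and 235, 359 and 265 CPM in GSK-126, with a paired log2 fold change of -0.07 (SE 0.107). Its level is that of the enzyme's transcript and says nothing of the edited share. Among the NMDA and delta genes, Grin2a, an NMDA subunit whose level increases as neurons mature, went from 54.7, 68.1 and 41.4 CPM to 19.4, 44.7 and 30.1 CPM, a log2 fold change of -0.85 (adjusted p 0.0308). The obligatory NMDA subunit Grin1 had -0.25 (adjusted p 0.297). Of these 9 genes 1 passed, and of the 9 AMPA and kainate genes 1 passed in the other direction; the difference between the families was not tested.

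The genes whose log2 CPM over the 6 libraries was most like that of Grik3 were Myo16 (Pearson r of 0.988), Stc1 (0.986) and Cpne8 (0.978). For Gria2 they were Usp29 (0.999), Lrch3 (0.999) and Jpx (0.996). The 6 points fall into 3 pairs that deviate together, so these values describe likeness only. A value above 0.95 was reached by 1.66% of the genes tested for Gria2 and by 0.245% for Grik3.

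RefSeq promoters (GRCm38.p6, the 250 bases before the gene start) were at hand for 6 of the 9 members, Gria2, Gria4, Grik2, Grik3, Grik4 and Grik5. The complex that holds EZH2 is known to occupy promoters rich in CG dinucleotides. Shown are the promoters of the kainate and the AMPA gene with the lowest paired p, Grik3 and Gria2, with each CG in capitals. Grik3 lies at chr4:125490446-125490695 on the plus strand and Gria2 at chr3:80802836-80803085 on the minus strand.
Grik3: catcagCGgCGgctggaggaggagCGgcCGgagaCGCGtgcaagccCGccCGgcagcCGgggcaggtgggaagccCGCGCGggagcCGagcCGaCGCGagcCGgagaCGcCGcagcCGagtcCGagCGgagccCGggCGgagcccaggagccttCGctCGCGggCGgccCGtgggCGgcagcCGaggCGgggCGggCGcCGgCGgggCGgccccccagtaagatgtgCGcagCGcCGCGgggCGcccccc
Gria2: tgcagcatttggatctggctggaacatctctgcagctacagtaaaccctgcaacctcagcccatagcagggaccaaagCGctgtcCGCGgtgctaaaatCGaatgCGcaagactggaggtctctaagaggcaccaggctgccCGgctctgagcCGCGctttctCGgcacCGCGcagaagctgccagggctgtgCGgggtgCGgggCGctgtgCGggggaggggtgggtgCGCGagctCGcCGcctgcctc

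Grik3 had 42 CG dinucleotides in this window, a number met by 0.865% of the 32851 promoters in the table, whose median was 6. Grik4 had 36, Grik2 20, Gria2 19, Gria4 16 and Grik5 8. The GC box GGGCGG, searched on both strands, occurred 6 times in Grik3, 2 times in Grik5 and 1 time in Grik4, and 32.7% of all promoters held it; each match also contains a counted CG. TATAAA was found in none of the 6 and in 12.4% of all promoters. H3K27me3 at these promoters was not analysed here, and a link between the number of CG dinucleotides and the change of a member was not tested.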

How the data were processed

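The deposited values were whole-number counts per gene, 1 table per library. Trimming (Trimmomatic 0.38), alignment to GRCm38 (mm10) by STAR 2.7.2b and exon counting by HTSeq were done by the authors; the strand setting was not given in the sources used here. Of the fragments, 39.1% to 41.6% were assigned to genes. The rest stands in 5 summary rows, not used in any fit, with 44.8% to 46.7% counted to no feature. Without the strand setting, fragments over no exon cannot be told apart there from fragments on the strand opposite to an exon.

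Genes passing filterByExpr were fitted with edgeR 4.0.16 (quasi-likelihood test, TMM factors, treatment as the only term), with Benjamini-Hochberg adjustment over all 16343 genes and a threshold of 0.05. The code was tested on simulated data. DESeq2 1.42.0, limma 3.58.1 and a replicate block were alternatives. A replicate is a culture from pooled litters. The labels do not state a pairing. Deviations from the group means correlated at 0.35, 0.50 and 0.52 between libraries of the same number and at -0.41 to -0.01 between others. Within a group these deviations cancel out, so the negative values follow in part from the positive ones. The numbers were read as pairs on this basis. The block with RLE factors, with library totals or without a filter, and the test between replicate numbers, were chosen after seeing the data. Levels between genes are CPM per kilobase of the union of GENCODE M21 exons. PCR duplicates carry no molecular identifiers, so floors cover counting error only.

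The members and lists were chosen with earlier results of these data known. The text names all 9 members; of the partners, those past the threshold in edgeR with or without the block, those at or under the filter, and Adarb1, Cacng2, Cacng7, Cacng8, Neto1, Neto2, Dlg4 and Grin1; and, for the AMPA and the kainate gene with the lowest paired p, the 3 genes most like it. Cacng4, Cacng5, Shisa9, Gsg1l, Dlg3, Homer2, the marker genes and the neighbours of Cacng7 were named after their values were seen. Some genes of these lists are not reported here.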

Additional observations from a re-analysis of the deposited data

How the results depend on the processing

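Precision is limited by 3 pairs: the calls rest on the replicate block, and leaving out a pair changed them. Of the 9 subunit genes 0 were called by treatment alone, 1 with the replicate block, 1 with DESeq2 and the block, 1 with the block and RLE factors, 0 with the block and library totals, and 2 with the block and no filter, where Gria2 joined Grik3 (log2 fold change -0.36, adjusted p 0.0252 in edgeR). Leaving out a pair under the block gave 0 to 1, with 0 without replicate 2. Of the genes in the other lists 0 were called by treatment alone, 6 with the replicate block, 8 with DESeq2 and the block (7 lower, 1 higher), 6 with the block and RLE factors, 6 with the block and library totals, 12 with the block and no filter (10 lower, 2 higher) and 1 (Nptx1) with no filter alone; leaving out a pair under the block gave 1 without replicate 2, 4 without replicate 3 and 10 (8 lower, 2 higher) without replicate 1. The cause of these differences was not tested. Of all genes, 2.23% were called higher and 1.42% lower with the replicate block. With DESeq2 and the block, 5.37% of the genes with an adjusted p were called. For the other settings with the block or without a filter that share is not given here. Their counts are therefore not read as results about these genes. Beyond the genes already given with their paired values, the block changed no call among the other genes named by the rule. The alternatives with the block and another scaling or no filter were chosen after seeing the data.

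With single libraries left out, the log2 fold change of genes not called turned sign in some fits: Gria1 ran from -0.94 to 0.56, Gria3 from -0.10 to 0.23, Grik1 from -0.029 to 0.41, Grik4 from -0.73 to 0.12 (with the block and a pair left out, -1.0 to 0.28), Grik5 from -0.080 to 0.052 (with the block, to 0.032), Adarb1 from -0.26 to 0.089 (with the block, to 0.031) and Neto1 from -0.11 to 0.93. Under the block with a pair left out, Gria2 ran from -0.47 to -0.17, Grik2 from -0.44 to -0.11 and Gria4 from -0.34 to -0.10, each smallest without replicate 1. Under the other scalings the median of all genes moved by at most -0.013 on the log2 scale.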
